A study of Mus musculus with 96 samples.

Results

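RNA-seq libraries from isolated mouse hepatocytes were compared between the labels RevScapTKO and RevDKO at zeitgeber time 22 (ZT22), late in the dark phase when lights come on at ZT0. There were 3 libraries per label, so that 6 of the 96 libraries of the series entered the comparison. All animals were male C57BL/6J mice kept in 12 h of light and 12 h of dark, injected intravenously at 8 weeks of age with an adeno-associated virus and then given a high-fat, high-sucrose diet (D12492) for 4 weeks. RevDKO mice carried floxed Rev-erbα and Rev-erbβ alleles (genes Nr1d1 and Nr1d2) and received AAV-TBG-CRE, in which the hepatocyte promoter TBG drives the recombinase. RevScapTKO mice carried a floxed Scap allele on top of these and received the same virus. Both groups therefore share the Rev-erb deletion by label and differ in Scap. Liver cells in which TBG is silent keep the floxed genes intact. Control libraries (AAV-TBG-GFP) at ZT22 are given beside some values. The values are RPKTM, reads per kilobase of transcript scaled to a fixed number of reads per library, quantile normalised over the 36 hepatocyte libraries by the authors. The comparison was fitted for 13326 gene symbols, and differences are RevScapTKO minus RevDKO in log2(RPKTM + 1). Adding 1 shrinks the fold change of genes with low values. The labels number the libraries without naming animals, so p-values measure the spread between libraries. The fit took in all 36 hepatocyte libraries in 12 groups of genotype and time. This spread is therefore that within all 12 groups and not within the 6 libraries alone.

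SCAP is the escort protein of the sterol regulatory element-binding proteins (SREBPs). When sterols are scarce, SCAP carries SREBP from the endoplasmic reticulum to the Golgi, where the proteases encoded by Mbtps1 and Mbtps2 release the transcription factor domain; INSIG proteins hold the complex back when sterols are plentiful. SREBP2, from Srebf2, mainly drives cholesterol synthesis and uptake, and SREBP1c, from Srebf1, mainly drives fatty acid synthesis, which in liver follows feeding and insulin. Mice eat mostly in the dark phase. REV-ERBα and REV-ERBβ are repressors of the circadian clock that bind near Arntl (BMAL1) and many lipid genes.

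SREBPs are known to act through promoter elements together with the factors NF-Y, which binds CCAAT, and SP1, which binds GGGCGG. The 250 bases before the listed transcript start (mouse build mm9, NCBIM37 sequence) were therefore searched on both strands for TCACNCCAC, a form of the sterol regulatory element, and for CCAAT and GGGCGG. Windows were read for 20 genes of the cholesterol synthesis and lipoprotein uptake lists that were lower in the RevScapTKO libraries. Hmgcs1, also called lower, was not among them. Of these 20, 15 (75%) held CCAAT and 17 (85%) held GGGCGG, beside 4785 and 7445 (55.9%) of all 13308 promoters read this way. Of the 235 promoters that were read among all genes called lower, 43.8% held CCAAT and 58.7% GGGCGG. TCACNCCAC was in 0 of the 20 and in 0.962% of all, which says only that these letters are not in these windows. The windows of 3 genes with many matches are shown because they carry the promoter letters next to the expression values given below. They belong to Mvk (plus strand, chr5:114894028-114894277), Sqle (plus strand, chr15:59146397-59146646) and Hsd17b7 (minus strand, chr1:171899337-171899586). They are written 5′ to 3′ on the gene's strand, end at the base before the start, and have every CCAAT and GGGCGG match in capitals, read as ATTGG or CCGCCC where the match is on the other strand.
Mvk: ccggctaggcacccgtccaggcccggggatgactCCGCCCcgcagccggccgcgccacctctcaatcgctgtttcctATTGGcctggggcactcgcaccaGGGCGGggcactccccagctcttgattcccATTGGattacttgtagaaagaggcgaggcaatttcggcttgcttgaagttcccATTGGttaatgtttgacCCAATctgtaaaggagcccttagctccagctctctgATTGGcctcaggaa
Sqle: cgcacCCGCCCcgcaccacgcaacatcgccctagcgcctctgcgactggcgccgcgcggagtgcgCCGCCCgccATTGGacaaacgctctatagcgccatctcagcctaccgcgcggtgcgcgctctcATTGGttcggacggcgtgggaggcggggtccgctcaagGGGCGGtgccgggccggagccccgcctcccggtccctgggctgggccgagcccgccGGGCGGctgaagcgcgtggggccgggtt
Hsd17b7: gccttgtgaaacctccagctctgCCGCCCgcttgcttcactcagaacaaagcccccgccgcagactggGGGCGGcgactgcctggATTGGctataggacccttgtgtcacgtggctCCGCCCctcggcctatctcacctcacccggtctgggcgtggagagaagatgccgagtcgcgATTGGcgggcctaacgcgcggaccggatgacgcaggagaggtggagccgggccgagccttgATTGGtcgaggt
A match describes the letters and is not a measured binding site. Mvk held 5 CCAAT and 2 GGGCGG matches, Sqle 2 and 4, and Hsd17b7 3 and 3. The 3 Hsd17b7 matches of CCAAT and the 2 of Sqle all lay on the strand opposite to the gene.

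The libraries were first checked against their labels. Scap was 536, 640 and 518 RPKTM in the RevDKO libraries and 203, 285 and 241 in the RevScapTKO libraries. Every RevScapTKO library lay below every RevDKO library, with a log2 difference of -1.22 (SE 0.29, adjusted p = 0.015), and the Control libraries were at 471, 493 and 465. The call was lost without RevDKO replicate 2 or RevScapTKO replicate 1, and with the macrophage score described below as a term (adjusted p = 0.192). Reads over the whole transcript are counted, so a deleted stretch lowers the value only in part. Nr1d1, the Rev-erbα gene, was 39.9, 76.3 and 43.5 RPKTM in the libraries labelled RevDKO and 51.2, 107 and 204 in those labelled RevScapTKO, against 5.09, 16.2 and 3.57 in Control. Nr1d2, the Rev-erbβ gene, was 225, 39.2 and 222, then 228, 358 and 297, against 63.8, 92.0 and 34.2 in Control. The whole-transcript level of neither gene was low in the libraries labelled as deleted, so it does not check that label. Arntl, a direct target of REV-ERB repression, was 139, 140 and 148 in RevDKO and 140, 102 and 134 in RevScapTKO, against 112, 117 and 119 in Control. Between RevScapTKO and RevDKO, Nr1d1 (log2 difference 1.01, 95% interval -0.01 to 2.03, adjusted p = 0.315), Nr1d2 (1.20, adjusted p = 0.104) and Arntl (-0.20, -0.73 to 0.34, adjusted p = 0.772) did not pass the threshold.

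One library stood apart. RevScapTKO replicate 2 correlated with the other 5 at 0.894 to 0.943 over genes (Pearson, log2 values), while the other pairs lay between 0.942 and 0.978. In 1438 genes it lay more than 1 log2 unit from the mean of the other libraries of its group while these were within 0.5 of each other, against 189 to 643 genes for each of the other 5 libraries. Hepatocyte markers were abundant in all 6 libraries (9 genes without Alb summed to 203696 to 229612 RPKTM in 5 libraries and to 117638 in RevScapTKO replicate 2). Alb was left out because it sits on the top ranks of the common distribution, where the normalisation sets its value by rank. It was 298478 RPKTM in all RevDKO libraries and RevScapTKO replicate 2, and 838976 in RevScapTKO replicates 1 and 3. The 14 macrophage markers summed to 2738, 1783 and 1945 RPKTM in RevDKO and to 4500, 7047 and 4280 in RevScapTKO. Thus the groups did not overlap, 13 of the 14 markers were higher in every RevScapTKO library, and none was at 0 apart from Cd14 in RevDKO replicate 3. In limma 0 of the 14 passed the adjusted threshold and 11 had an unadjusted p under 0.05 (median log2 difference 1.20). Over all 13326 tested genes, 2141 had an unadjusted p under 0.05 in this fit. Csf1r, the macrophage growth factor receptor, was 416, 271 and 262 against 749, 975 and 650. The 10 stellate and fibroblast markers summed to 1764 to 2041 against 3023 to 3461, and the 10 endothelial markers to 2287 to 2503 against 2549 to 3379. Of the stellate markers 1 of 9 tested rose, Lrat, which esterifies retinol for storage (1.61, adjusted p = 0.0319), and its call was lost in each fit that left out 1 library except that without RevDKO replicate 3, and with the macrophage score described below (adjusted p = 0.384). Lymphocyte markers were near 0, with a sum under 8 RPKTM in every library, and the 6 cholangiocyte markers summed to 60.6 to 123 against 151 to 304. Neutrophil markers summed to 15.5 to 17.5 against 20.6 to 39.9, while the sums of the monocyte list (12976 to 16228 against 5935 to 13581) and the erythroid list (146 to 236 against 116 to 189) overlapped. The monocyte sum does not follow its single members. Of the 3 tested, 2 were higher in every RevScapTKO library, 1 had a negative difference and 0 were called (median log2 difference 1.77). In such bulk libraries, fewer cells of a type and less RNA per cell cannot be told apart. What these cells contribute to single genes was not tested beyond a fit with the macrophage score, the mean log2(RPKTM + 1) of the 14 markers in each library, as a term, which is given for the named genes whose call it ended. The centred score was 0.07 to 0.89 in RevDKO and 1.40 to 2.14 in RevScapTKO. That fit therefore cannot tell score and genotype well apart, and a lost call does not give a cause. Some differences held in it, as for Tm6sf2 (-1.17 and -1.16 with the score), and others shrank, as for Abcc12 (4.19 and 2.69).

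**Figure D1:**
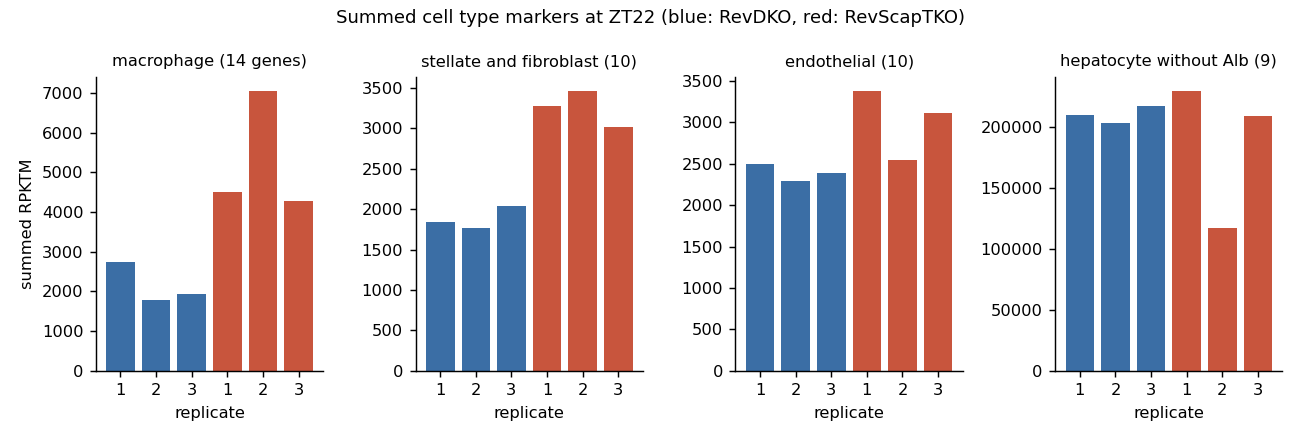
Summed RPKTM of cell type markers in each ZT22 library (y axis) by replicate number (x axis), with RevDKO bars in blue and RevScapTKO bars in red. Macrophage sums of 4280 to 7047 in RevScapTKO lie above 1783 to 2738 in RevDKO, and the hepatocyte sum is lowest, at 117638, in RevScapTKO replicate 2.

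In all, 313 genes (2.35% of those tested) passed an adjusted p of 0.05 at ZT22. Of these, 237 (1.78% of those tested) were lower and 76 (0.57%) were higher in the RevScapTKO libraries, and in 309 the 3 libraries of each group did not overlap. Over all genes the groups were apart without overlap in 10.6% of genes upward and 12.1% downward, so a lack of overlap alone marks little here. More than 2 log2 units separated the groups in 80 of the falls and 30 of the rises, with a median of -1.49 for the falls and 1.72 for the rises. In RevDKO hepatocytes the median of the group means was 106 RPKTM for the falls, against 44.0 for all tested genes. For the rises it was 15.8, with 27 of 76 under 5 RPKTM. RevDKO is one side of the comparison that chose these genes, so their order there follows in part from the choice. The median difference over all tested genes was -0.02. The 2 directions differed in how many calls were kept when 1 library was left out. Without RevScapTKO replicate 2, 103 of the 237 falls and 9 of the 76 rises were still called. With the macrophage score in the fit these numbers were 94 and 12. Without RevDKO replicate 2 they were 120 and 23, and without RevDKO replicate 1 they were 137 and 32. With only the 6 ZT22 libraries in the fit they were 85 and 14. Acaca, Elovl6, Fads2, Thrsp and Pmvk were among the falls no longer called there.

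**Figure D2:**
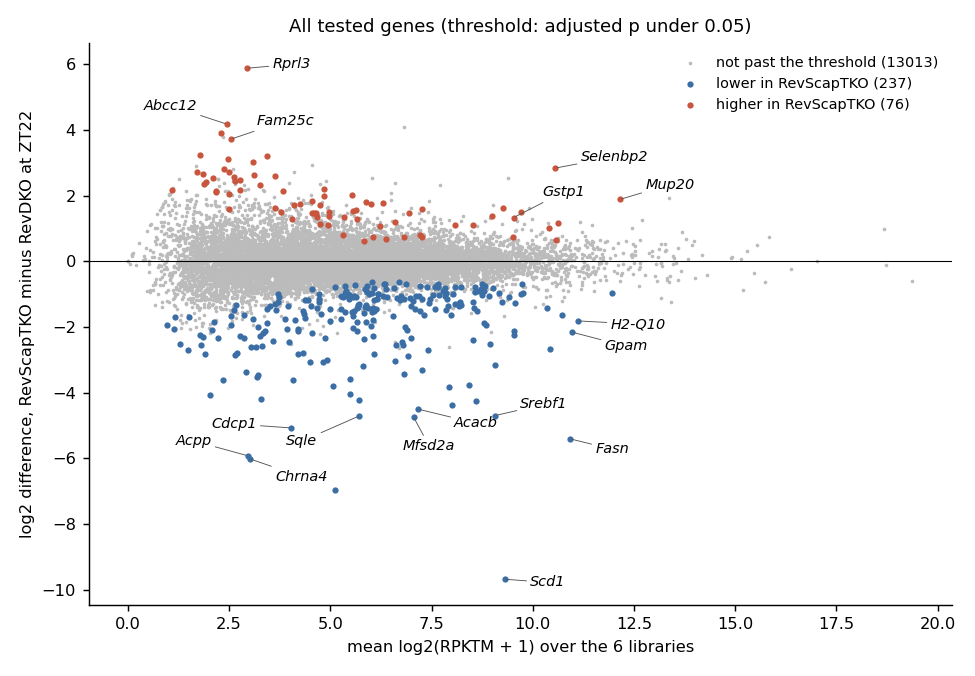
Log2 difference between RevScapTKO and RevDKO at ZT22 (y axis) against the mean log2(RPKTM + 1) over the 6 libraries (x axis) for 13326 genes, with 237 genes called lower in blue, 76 called higher in red and the rest in grey. Scd1, at -9.68, lies farthest below 0, and many of the red points lie at low levels.

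Of the 14 genes of the SREBP activation machinery, 4 were lower and 0 higher. Scap itself was one. Srebf1 was 3334, 3024 and 2027 RPKTM in RevDKO and 108, 74.6 and 142 in RevScapTKO, a 25.8-fold lower mean (log2 difference -4.69, SE 0.38, adjusted p = 3.68e-10). Srebf2 moved less, from 201, 233 and 173 to 81.9, 75.7 and 77.6 (-1.35, SE 0.28, adjusted p = 0.00483). Neither gene had overlapping groups. Insig1, which retains SCAP in the endoplasmic reticulum and is itself an SREBP target, was 1307, 1321 and 1135 against 68.6, 84.1 and 135 (-3.75, SE 0.34, adjusted p = 3.07e-09). Its paralog Insig2 was 1086, 1422 and 1265 against 871, 827 and 871 (-0.55, adjusted p = 0.298), a difference that did not pass although the groups were apart. The remaining members, among them both proteases and the degradation factor Rnf139, were not past the threshold. Erlin1, an endoplasmic reticulum protein that binds SREBP complexes, came nearest at 0.67 (adjusted p = 0.0935).

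**Figure D3:**
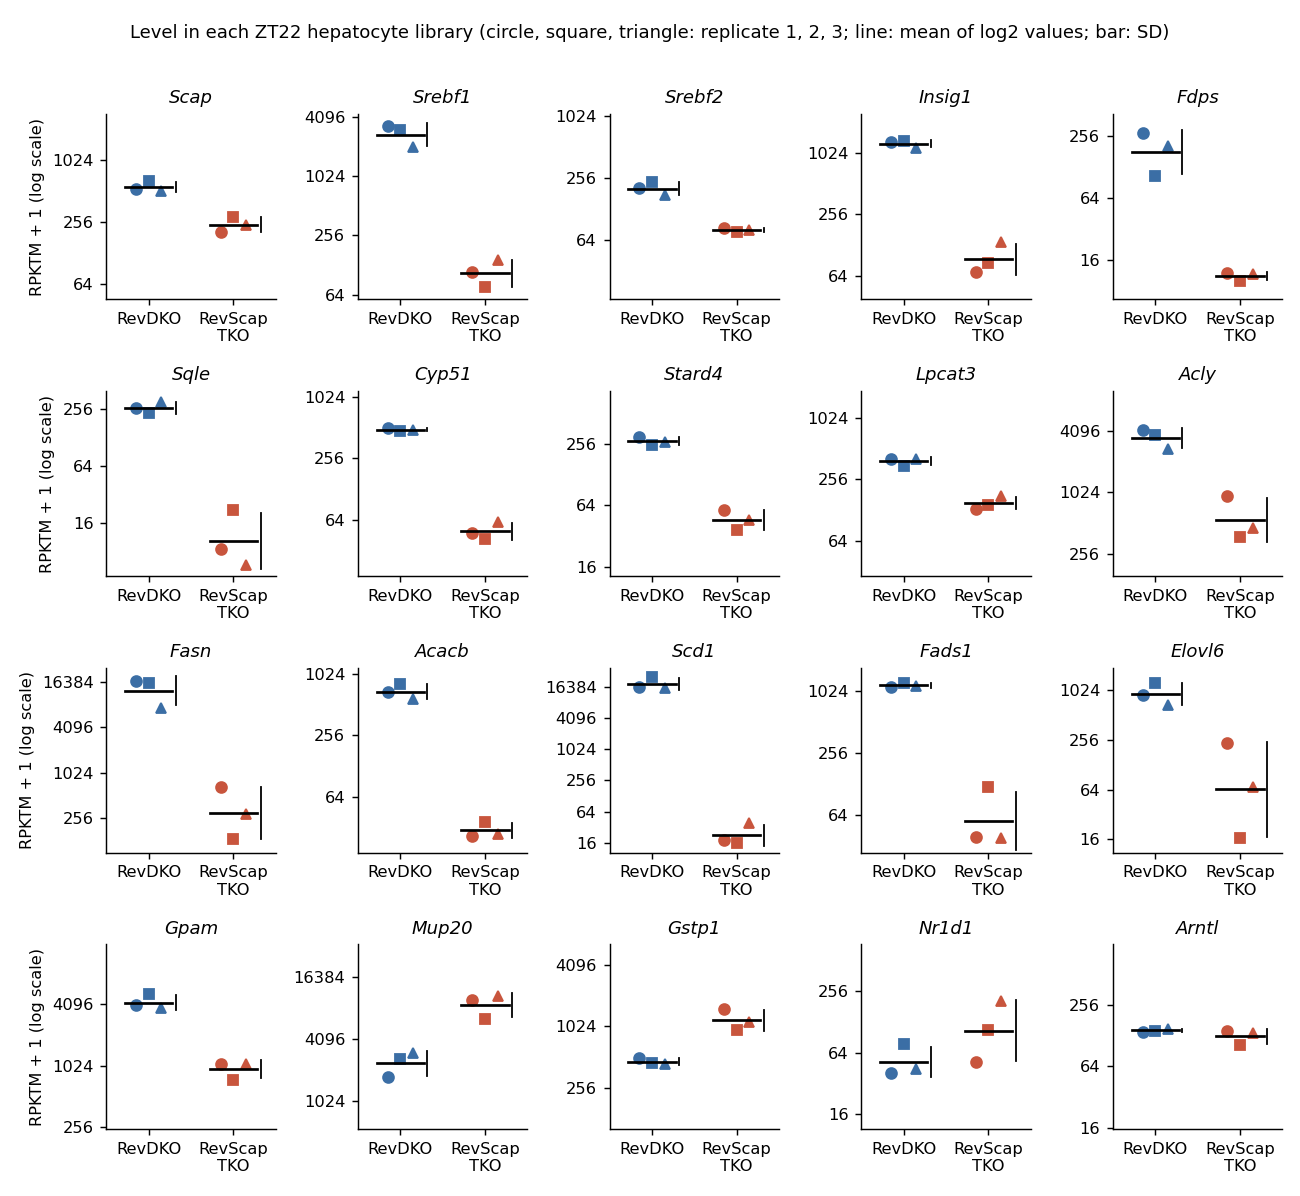
RPKTM + 1 on a log2-spaced axis in the 3 RevDKO (blue) and 3 RevScapTKO (red) ZT22 libraries for 20 genes, with replicate 1 as a circle, 2 as a square and 3 as a triangle. The black line is the mean of the log2 values and the bar their SD (n = 3). From Scap to Gpam every red symbol lies below every blue one, Mup20 and Gstp1 show the reverse order, and Nr1d1 and Arntl overlap.

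In the mevalonate arm of cholesterol synthesis, which builds isoprenoid units from acetyl-CoA, 8 of 9 tested genes were lower and 0 were higher (median log2 difference -2.06). Mvk, mevalonate kinase, was 27.2, 37.8 and 47.9 RPKTM in RevDKO and 7.98, 7.34 and 8.88 (-2.06, adjusted p = 0.000241). The later enzymes had larger falls, with log2 differences of -3.62 for Mvd, -3.61 for Idi1 and -4.04 for Fdps (adjusted p of 6.36e-07, 1.09e-05 and 5.76e-10). Fdps, which makes farnesyl diphosphate, was 276, 105 and 204 against 10.8, 8.96 and 10.6. Acat2 (-1.53) and Pmvk (-2.18) were also lower, and the Acat2 call was lost with the macrophage score (adjusted p = 0.0956). Hmgcs1, the synthase that makes HMG-CoA, is listed in the file only on an unplaced piece of chromosome 13. It stayed under 4 RPKTM in each of the 6 libraries compared, so its fall (-1.70, adjusted p = 0.02) is one between low values. The call was lost in 4 of the 6 fits that left out 1 library: RevDKO replicates 1 and 2, and RevScapTKO replicates 1 and 3. It was also lost with the macrophage score (adjusted p = 0.256). Ggps1, which diverts farnesyl diphosphate to protein prenylation, was the one member not past the threshold, at 57.8, 58.4 and 62.3 against 88.1, 60.3 and 70.8 (0.27, 95% interval -0.71 to 1.26).

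From squalene to cholesterol, 10 of 12 tested genes were lower and 0 were higher (median -2.21). Sqle, squalene epoxidase, was 264, 231 and 304 RPKTM in RevDKO and 7.39, 20.6 and 4.71 in RevScapTKO, a 24.4-fold lower mean (-4.71, SE 0.48, adjusted p = 3.24e-08). Cyp51, lanosterol demethylase, was 501, 467 and 483 against 46.5, 40.8 and 60.1 (-3.29, SE 0.36, adjusted p = 1.68e-07). Both genes changed by far more than the spread within either group. The demethylation enzymes Nsdhl (-3.78) and Msmo1 (-3.42), the sterol reductases Tm7sf2 (-2.81) and Dhcr7 (-2.08), lanosterol synthase Lss (-2.33) and squalene synthase Fdft1 (-1.99) fell as well. The smallest falls were those of Hsd17b7 (251, 248 and 253 against 80.0, 90.0 and 94.4, -1.50, adjusted p = 0.000752) and Sc5d (-1.27, adjusted p = 0.00438). The Sc5d call was lost without RevScapTKO replicate 2, whose 290 RPKTM lay well below the 607 and 658 of the other RevScapTKO libraries, and with the macrophage score (adjusted p = 0.157). Ebp, the sterol isomerase, was 489, 63.8 and 583 in RevDKO and 300, 122 and 374 in RevScapTKO. Its groups overlapped through RevDKO replicate 2 alone, and replicate 2 was the lowest library of both groups.

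Among 12 tested genes of lipoprotein uptake and sterol transport, 3 were lower and 0 higher. Stard4, a cytosolic sterol carrier, was 295, 246 and 265 RPKTM in RevDKO and 56.5, 35.8 and 44.7 in RevScapTKO (-2.55, adjusted p = 5.22e-08). The receptors Lrp1, Scarb1 and Vldlr and the lysosomal proteins Npc1, Npc2 and Lipa were not past the threshold. Of the 11 genes of the liver X receptors and sterol efflux, 2 were lower. Lpcat3, which puts polyunsaturated fatty acids into phospholipids, was 409, 349 and 401 against 132, 144 and 174 (-1.36, SE 0.18, adjusted p = 5.76e-06). Abcg5 and Abcg8, the paired subunits of the canalicular sterol exporter, had like values, at 318, 392 and 279 against 118, 138 and 241 for Abcg5 (-1.04, adjusted p = 0.0374) and 328, 416 and 298 against 121, 183 and 251 for Abcg8 (-0.95, adjusted p = 0.0991). They share one promoter region, and the Abcg5 call was lost without any one of RevDKO replicates 1 and 2 and RevScapTKO replicates 1 and 2, and with the macrophage score (adjusted p = 0.475).

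In fatty acid synthesis, 9 of 10 genes were lower and 0 higher (median -2.77). Fasn, fatty acid synthase, was 16763, 15851 and 7485 RPKTM in RevDKO and 664, 134 and 293 in RevScapTKO, a 36.8-fold lower mean (-5.40, SE 0.50, adjusted p = 5.3e-09). Fasn was among the most abundant falling genes and varied within both groups, but the lowest RevDKO value was still far above the highest RevScapTKO value. The enzymes that feed it fell too. Acly, which makes cytosolic acetyl-CoA from citrate, was 4140, 3714 and 2737 against 949, 376 and 462 (-2.66, SE 0.33, adjusted p = 1.69e-06). Acaca and Acacb encode the 2 acetyl-CoA carboxylases, the first for synthesis and the second, at mitochondria, for the malonyl-CoA that restrains oxidation. Acaca was 1445, 1292 and 864 against 482, 85.0 and 211 (-2.51, adjusted p = 0.000359), and Acacb was 682, 806 and 578 against 25.6, 35.8 and 27.2 (-4.50, SE 0.49, adjusted p = 1.61e-07). Acss2 (-2.40), which activates acetate, the citrate carrier Slc25a1 (-1.26), malic enzyme Me1 (-2.87) and Thrsp (-4.25) fell too. Mid1ip1, a partner of the carboxylases, was 245, 20.6 and 115 against 34.5, 1.54 and 12.4 (-3.00, adjusted p = 0.0121); here the groups overlapped and the call was lost without RevDKO replicate 1, RevDKO replicate 3 or RevScapTKO replicate 2, and with the macrophage score (adjusted p = 0.152). Mlxipl, which encodes the glucose-sensing factor ChREBP, was at 1191, 1154 and 852 against 975, 629 and 955 (-0.33, 95% interval -1.01 to 0.34, adjusted p = 0.678).

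Among 13 desaturases and elongases, 6 were lower and 1 was higher. Scd1, the stearoyl-CoA desaturase that makes oleate, showed the largest fall of any gene, from 15851, 24858 and 15272 RPKTM to 17.2, 14.6 and 37.2, an 810-fold lower mean (-9.68, SE 0.52, adjusted p = 1.23e-14). Its paralog Scd2 was at 29.1, 32.5 and 30.5 against 33.4, 55.1 and 33.7 and did not pass the threshold (0.36, adjusted p = 0.754), so that the RevScapTKO levels of the 2 paralogs were of like size. Fads1 and Fads2, the desaturases of polyunsaturated fatty acid synthesis, were 1116, 1242 and 1139 against 37.5, 118 and 36.9 (-4.39, SE 0.44, adjusted p = 3.4e-08) and 1509, 1749 and 1615 against 194, 727 and 281 (-2.25, SE 0.30, adjusted p = 1.12e-05). In both genes RevScapTKO replicate 2 was the highest of its group. The elongase Elovl5 (-3.15), Elovl6 (-3.83) and the enoyl reductase Tecr (-1.46) were lower, and the Tecr call was lost with the macrophage score (adjusted p = 0.0693). Elovl6, which extends palmitate, was 891, 1267 and 680 against 233, 15.6 and 67.1 (adjusted p = 0.000224), so in this gene RevScapTKO replicate 2 was the lowest. Elovl7 went against the list: it was 0, 1.08 and 0 in RevDKO and 16.7, 40.4 and 8.60 in RevScapTKO (3.91, SE 0.89, adjusted p = 0.0121), a call lost without RevScapTKO replicate 2 or RevDKO replicate 1 and with the macrophage score (adjusted p = 0.328).

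In triglyceride synthesis, 2 of 12 genes were lower, and 7 had an unadjusted p under 0.05 in limma, beside 2141 of all 13326 tested genes. Gpam, the mitochondrial acyltransferase of the first step, was 3986, 5118 and 3739 RPKTM against 1074, 747 and 1074 (-2.16, SE 0.23, adjusted p = 1.2e-07). Pnpla3, a lipid droplet protein, was 74.4, 60.0 and 14.4 against 1.09, 1.85 and 1.01 (-4.18, adjusted p = 0.000295). Dgat2, which adds the last acyl chain, was 1778, 1983 and 1602 against 1280, 872 and 1297, without overlap and just outside the threshold (-0.65, adjusted p = 0.0596). In limma 0 of 13 tested lipid droplet and lipolysis genes passed and 5 had an unadjusted p under 0.05. The droplet coat gene Plin2 was at 675, 745 and 723 against 440, 547 and 471. Of 16 apolipoprotein and VLDL assembly genes, 2 were lower: Angptl8, a feeding-induced inhibitor of lipoprotein lipase (422, 624 and 82.6 against 80.7, 8.63 and 48.8, -3.05, adjusted p = 0.0199), and Tm6sf2 (-1.17, adjusted p = 0.0367). The lowest RevDKO and highest RevScapTKO values of Angptl8 almost touched. Both calls were lost without RevScapTKO replicate 2 and without either of RevDKO replicates 1 and 2, and that of Tm6sf2 also without RevDKO replicate 3. With the macrophage score both were lost too (adjusted p of 0.153 for Angptl8 and 0.192 for Tm6sf2). In phospholipid synthesis, Lpcat3 and Pcyt2 (1078, 1104 and 1074 against 666, 612 and 733, -0.70, adjusted p = 0.012) were lower of 13 tested, and the Pcyt2 call was lost without RevDKO replicate 2 or RevScapTKO replicate 2 and with the macrophage score (adjusted p = 0.113).

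Genes outside the lists were among the largest falls. Chrna4, a nicotinic receptor subunit, was 70.7, 58.1 and 62.6 RPKTM in RevDKO and was listed at 0 in all 3 RevScapTKO libraries (adjusted p = 6.35e-09). Acpp, a phosphatase gene, was 65.0, 53.6 and 60.4 and likewise listed at 0 in all 3 (adjusted p = 6.61e-15). These 2 genes went from moderate values in every RevDKO library to none listed. Cdcp1, a membrane glycoprotein, was 110, 115 and 64.0 against 3.07, 1.36 and 1.28 (-5.07, SE 0.83, adjusted p = 0.000244). Mfsd2a, a carrier of lysophosphatidylcholine with long-chain polyunsaturated fatty acids, was 669, 694 and 715 against 36.3, 5.69 and 67.1 (-4.75, SE 0.93, adjusted p = 0.00252), and its call was lost without RevScapTKO replicate 2 (adjusted p = 0.0611). Scd1, Fasn, Sqle, Srebf1 and Acacb were also among the 10 largest falls. Among the 5 most abundant falling genes were Scd1, Fasn and Gpam together with 2 that are not lipogenic enzymes. H2-Q10, a secreted class I histocompatibility antigen of liver, was 4026, 4584 and 3889 against 921, 1529 and 1178 (-1.81, SE 0.17, adjusted p = 1e-08). H2-Q10 has close paralogs, so its reads may be shared with them. Slc27a5, the bile acid and fatty acid CoA ligase, was 5471, 6068 and 5027 against 2933, 2246 and 3471 (-0.96, adjusted p = 0.0273), a call lost without RevScapTKO replicate 2 (0.229), RevDKO replicate 1 or RevDKO replicate 2, and with the macrophage score (0.209).

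The rises were fewer, often of genes low in RevDKO, and their calls were less stable. The largest was Rprl3, a short RNA gene of the RNase P-like family with near-identical copies, listed at 0 in all 3 RevDKO libraries and at 34.6 to 113 RPKTM in RevScapTKO (adjusted p = 0.00627). Control libraries were at 124, 81.5 and 4.51 for it. Abcc12, a transporter gene, was 1.03, 0 and 0 against 6.84, 86.3 and 16.9 (4.19, adjusted p = 0.0056). After Elovl7, Fam25c and Klhl33 came Ifi27l2b (3.23), Dusp8 (3.11), Nrg1 (3.02), Selenbp2 (2.84) and Cd63 (2.81). In Rprl3, Abcc12, Elovl7, Ifi27l2b, Dusp8, Nrg1 and Cd63, 7 of these 10 largest rises, the highest value was that of RevScapTKO replicate 2. Nrg1, a growth factor of the EGF family, was 2.36, 2.08 and 1.54 against 18.6, 28.7 and 22.9 (adjusted p = 0.0443). Without RevScapTKO replicate 2, Rprl3, Abcc12, Ifi27l2b, Dusp8, Nrg1 and Cd63 were no longer called (adjusted p of 0.0626 to 0.348), and all of these but Rprl3 were also lost with the macrophage score. The Nrg1 call was lost whichever 1 of the 6 libraries was left out, those of Ifi27l2b and Dusp8 also without RevDKO replicate 1 or 3, and that of Cd63 also without RevDKO replicate 2 or 3 or RevScapTKO replicate 3.

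Only 8 of the 76 rises were called both without RevScapTKO replicate 2 and with the macrophage score in the fit, against 86 of the 237 falls. They were Fam25c, Klhl33, Mup20, Gstp1, Col6a5, Slc7a7, Fkbp11 and Dynll1, of which the last 4 are named after their values were seen. Fam25c was 1.01, 0 and 1.06 RPKTM in RevDKO and 20.4, 11.5 and 34.6 in RevScapTKO (3.73, SE 0.65, adjusted p = 0.000586). Klhl33 was 0, 0 and 0.361 against 14.9, 6.75 and 8.63 (3.25, adjusted p = 0.00939). Both were close to absent in RevDKO and low in RevScapTKO. Mup20, the major urinary protein darcin, was 1727, 2587 and 2966 against 9799, 6461 and 10688, a 3.70-fold higher mean (1.89, SE 0.35, adjusted p = 0.00122). Mup genes are near-identical, so reads may be shared among them. Gstp1, a glutathione transferase, was 507, 449 and 435 against 1498, 944 and 1132, a 2.57-fold higher mean (1.34, SE 0.27, adjusted p = 0.00352). Slc7a7, an amino acid transporter subunit that macrophages also express, was 10.7, 15.3 and 8.87 against 44.1, 44.9 and 42.1 (1.85, adjusted p = 0.000325). Col6a5, a collagen chain (2.58), the dynein light chain Dynll1 (1.75) and the prolyl isomerase Fkbp11 (1.49) rose too.

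The calls of the other abundant rises were lost when single libraries were left out, which also leaves fewer libraries in a group. Selenbp2, a liver protein with higher levels in males, was 928, 259 and 733 RPKTM against 4509, 3915 and 3714, a 6.32-fold higher mean (2.84, SE 0.70, adjusted p = 0.0212). The groups were far apart, but the call was lost without RevScapTKO replicate 2 (0.0884), RevScapTKO replicate 1 or RevDKO replicate 2, and with the macrophage score (0.0883). The Selenbp2 difference itself was 2.86 without RevScapTKO replicate 2 and 2.96 with the score. Ugt2b35, Ephx1 (both of xenobiotic metabolism) and Ddx5 (an RNA helicase) rose by 1.18, 1.02 and 0.66, with adjusted p of 0.0356, 0.0242 and 0.036. Their calls were lost without RevScapTKO replicate 2 and without either of RevDKO replicates 1 and 2, and those of Ugt2b35 and Ddx5 also without RevDKO replicate 3 or RevScapTKO replicate 1. With the macrophage score the calls of Ugt2b35, Ephx1 and Ddx5 were lost as well (adjusted p of 0.342, 0.222 and 0.407). Their differences were 1.07, 0.80 and 0.57 without RevScapTKO replicate 2, and 0.97, 0.90 and 0.47 with the score. Of the 76 rises, 13 (17.1%) had a Control level in the separately normalised macrophage table of the series at ZT22 over 4-fold that in the hepatocyte table, beside 3.35% of all tested genes and 1 of the 237 falls (0.422%). The macrophage marker sums given above moved in the same direction, and the 2 tables were normalised apart, so these shares describe levels only.

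**Figure D4:**
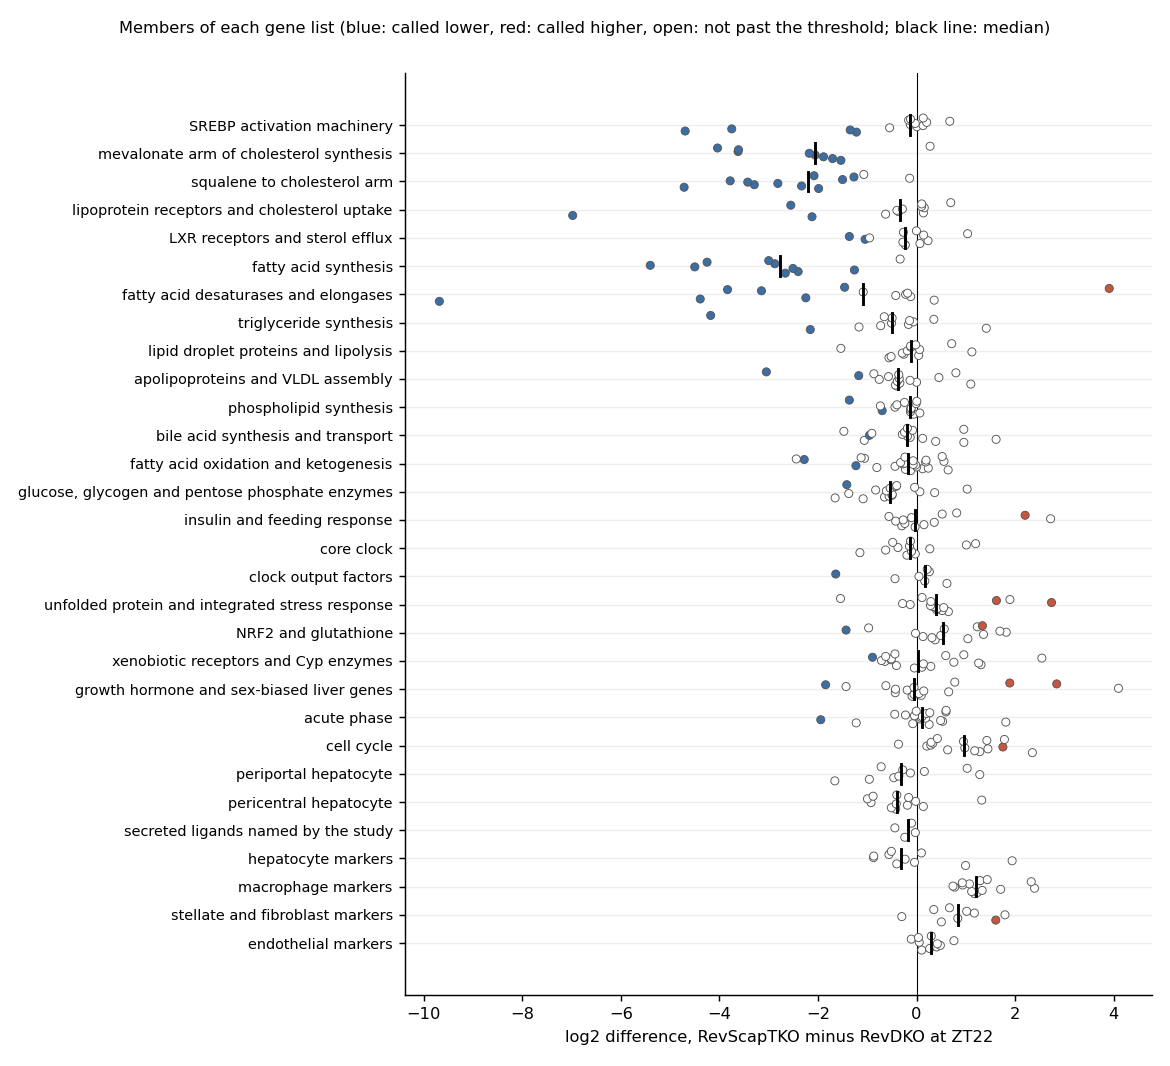
Log2 difference at ZT22 (x axis) of each tested member of 26 pathway lists and 4 marker lists (y axis), filled blue where called lower, red where called higher and open where not past the threshold, with the list median as a black line. The cholesterol and fatty acid synthesis lists lie almost wholly below 0 (medians -2.06, -2.21 and -2.77), and the macrophage markers lie above 0 without a call (median 1.20).

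Other metabolic lists had 1 or 2 calls each, where 2.35% of all tested genes were called. Of 15 bile acid genes, Slc27a5 alone was lower, and Cyp27a1 (-1.06, adjusted p = 0.0722) and Cyp7b1 (774, 286 and 739 against 1874, 1176 and 2136, 1.61, adjusted p = 0.0914) came nearest among the rest. Of 24 fatty acid oxidation and ketogenesis genes, 2 were lower, both of them targets of the receptor PPARα. Ehhadh, a peroxisomal enzyme, was 399, 500 and 457 RPKTM against 191, 210 and 175 (-1.23, adjusted p = 0.012). Cyp4a10, a fatty acid hydroxylase with close paralogs, was 71.2, 159 and 272 against 33.1, 36.8 and 20.5 (-2.28, adjusted p = 0.0205). The Ehhadh call was lost without RevDKO replicate 2, and the Cyp4a10 call without any one of RevDKO replicates 2 and 3 and RevScapTKO replicates 2 and 3. Both were lost with the macrophage score (adjusted p of 0.28 and 0.224). In glucose, glycogen and pentose phosphate metabolism 1 of 17 was lower: Tkt, transketolase, at 628, 733 and 495 against 210, 238 and 238 (-1.41, SE 0.20, adjusted p = 2.02e-05). Khk, ketohexokinase, was at -1.38 (adjusted p = 0.0832). Of 13 insulin and feeding response genes 1 was higher, Enho, which encodes the secreted peptide adropin, at 6.55, 19.5 and 14.4 against 75.0, 44.2 and 66.4 (2.20, adjusted p = 0.0291), a call lost in 5 of the 6 fits that left out 1 library, all but that without RevDKO replicate 2.

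In limma 0 of the 12 core clock genes passed the threshold. An unadjusted p under 0.05 was seen in 3 of them, beside 2141 of all 13326 tested genes. The smallest adjusted p was that of Nr1d2 (0.104), and Per2 was at -0.63 (adjusted p = 0.28). Of 7 clock output factors 1 was lower: Bhlhe40 (DEC1), a repressor that also responds to nutrients, at 520, 549 and 310 RPKTM against 160, 110 and 164 (-1.64, SE 0.29, adjusted p = 0.000629). This was the clearest change of a clock-related gene, and its groups did not overlap. Of 15 genes of the unfolded protein and integrated stress responses 2 were higher, Atf3 (2.10, 1.03 and 0.658 against 11.0, 16.5 and 13.8) and Trib3 (7.83, 5.73 and 5.01 against 16.2, 23.4 and 23.7), with differences of 2.74 and 1.62 and adjusted p of 0.0373 and 0.0239. Both calls were lost with the macrophage score (0.314 and 0.233). The Atf3 call was lost whichever 1 of the 6 libraries was left out, and that of Trib3 without any one of replicates 2 and 3 of either group. Of 14 NRF2 and glutathione genes, Gstp1 was higher and Gsta3 lower, the latter at 1988, 2027 and 2447 against 1253, 404 and 994 (-1.43, adjusted p = 0.0146).

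Of 18 xenobiotic receptor and Cyp genes 1 was lower, Cyp3a13, at 598, 622 and 606 RPKTM against 299, 332 and 353 (-0.89, adjusted p = 0.0129). Of 17 growth hormone and sex-biased genes, Mup20 and Selenbp2 were higher and Cyp4a12a was lower (142, 94.2 and 63.3 against 24.5, 18.9 and 36.2, -1.84, adjusted p = 0.00685), and all 3 are male-biased in mouse liver. Cyp2a4, a female-biased gene, was 26.3, 29.7 and 22.8 against 50.5, 12963 and 148 (4.10, SE 1.55, adjusted p = 0.178). Every RevScapTKO library lay above every RevDKO library, and RevScapTKO replicate 2 lay far above the rest of its group. Of 19 acute phase genes Orm1 was lower, at 808, 963 and 939 against 164, 286 and 271 (-1.94, adjusted p = 0.0156), and was lost without RevDKO replicate 2 or RevScapTKO replicate 1. Of 16 cell cycle genes Ccnd1, cyclin D1, was higher (29.5, 26.7 and 48.9 against 87.1, 177 and 101, 1.75, adjusted p = 0.036). The replication factors Mcm4 and Mcm6 and the proliferation marker Mki67 were not past the threshold, and Mki67 was 14.5, 6.09 and 13.9 against 19.9, 257 and 39.1, again highest in RevScapTKO replicate 2. Without that library Ccnd1 was not called (adjusted p = 0.277), nor was it without RevDKO replicate 1 or 2 or RevScapTKO replicate 3. The Gsta3, Cyp3a13 and Cyp4a12a calls were lost without RevScapTKO replicate 2 as well (0.244, 0.0528 and 0.0771), and without RevDKO replicate 3, 2 and 1 in turn. With the macrophage score the calls of Ccnd1, Gsta3, Cyp3a13 and Cyp4a12a were all lost (adjusted p of 0.562, 0.298, 0.124 and 0.126). In limma 0 of the 10 periportal, 0 of the 12 pericentral and 0 of the 4 secreted ligand genes were called. Of these lists 5, 4 and 0 genes had an unadjusted p under 0.05, beside 2141 of all 13326 tested genes.

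The Control libraries of ZT22 place these levels, as a description without a test. In fatty acid synthesis, 4 of 10 genes were higher in every RevDKO library than in every Control library, and 0 of the 9 mevalonate and 0 of the 12 squalene arm genes were, where 8.08% of all tested genes were. Acly was 780, 1492 and 1775 RPKTM in Control, below all 3 RevDKO values and overlapping with RevScapTKO. Gpam was 1237, 1743 and 2241 in Control, between the RevDKO and the RevScapTKO values. For Scd1 Control was 6781, 12963 and 10848, and for Fasn 2136, 6235 and 10131, so that Fasn overlapped with RevDKO and lay wholly above RevScapTKO. In cholesterol synthesis, Sqle was 265, 386 and 505 and Cyp51 547, 616 and 855 in Control, overlapping with RevDKO and above it, and 4 of the 12 squalene arm genes were lower in every RevDKO library than in every Control library, beside 8.18% of all tested genes. All 12 squalene arm genes and 8 of 9 mevalonate genes were lower in every RevScapTKO library than in every Control library, as were 6 of 10 fatty acid synthesis genes, beside 13.6% of all tested genes. Of 24 fatty acid oxidation and ketogenesis genes, 16 were lower and 1 was higher in every RevScapTKO library than in every Control library. In every RevDKO library 11 of these 24 were lower and 0 higher, beside 8.18% of all tested genes lower. In the other direction, 7 of the 15 stress response genes were higher in every RevScapTKO library than in every Control library, beside 10.8% of all, and 2 were lower. Mup20 was 1704, 827 and 2008 in Control, below RevScapTKO, whereas Gstp1, at 988, 629 and 1099 in Control, was lower in every RevDKO library and overlapped with RevScapTKO.

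The same contrast at ZT4, ZT10 and ZT16 rests on 18 other libraries. Of the 237 genes lower at ZT22, 148 were also called lower at ZT4, 73 at ZT10 and 110 at ZT16, where 4.86%, 0.735% and 1.14% of all tested genes were called lower. At all 4 times 64 of them were called lower, where 0.51% of all tested genes were called lower at each of ZT4, ZT10 and ZT16, and 224 of the 237 had a lower RevScapTKO mean at each of the other times. Of the 76 rises, 36, 5 and 10 were called higher at ZT4, ZT10 and ZT16, where 4.43%, 0.173% and 0.233% of all genes were, and 4 at all times, where 0.0375% of all genes were called higher at each of the other 3. Scd1 differed by -8.70, -8.03 and -9.25 at ZT4, ZT10 and ZT16, and Srebf1 by -3.74, -3.87 and -3.96. Fam25c rose by 3.90, 3.92 and 3.84 at these times, close to its 3.73 at ZT22. Angptl8 was higher on average in RevScapTKO at ZT4 (1.0), against its fall at ZT22, and at -0.85 and -1.37 at ZT10 and ZT16. Pnpla3 was at -1.05, -2.58 and -2.84. Whether the ZT22 difference departed from the mean of the other times was tested as an interaction in limma: 0 genes passed (smallest adjusted p 0.995), and 610 genes (4.58%) had an unadjusted p under 0.05. No gene can therefore be named as particular to ZT22 from these libraries. The 5 smallest p-values, chosen by unadjusted p because the adjusted values were tied, belonged to Armcx3 (1.58, SE 0.40, unadjusted p = 0.000361), Tcea2, Galnt7, Kremen1 and Gm45928.

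**Figure D5:**
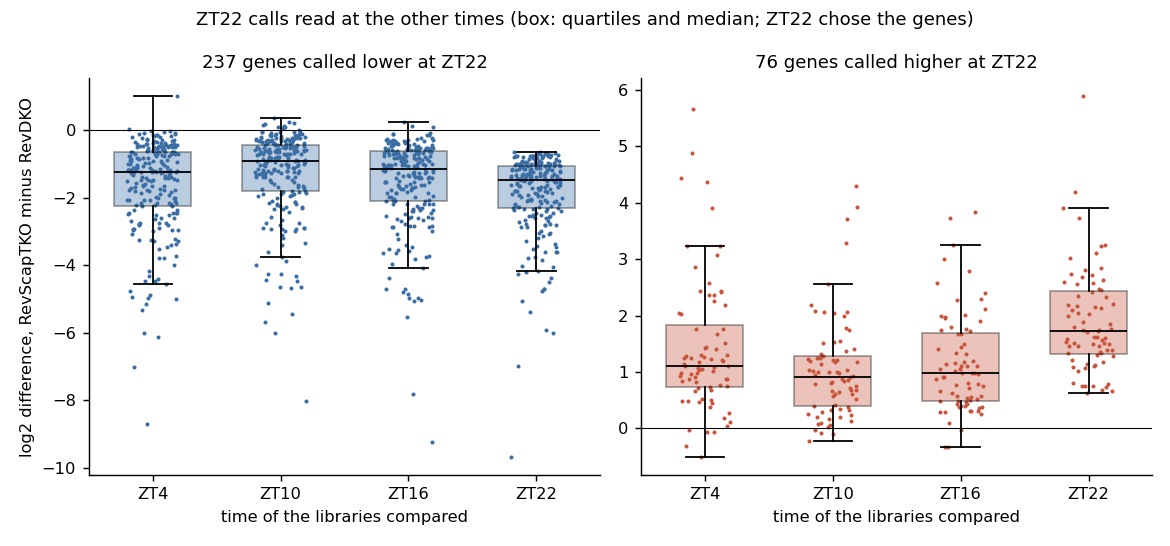
Log2 difference between RevScapTKO and RevDKO (y axis) at each of 4 times (x axis) for the 237 genes called lower (left, blue) and the 76 called higher (right, red) at ZT22, with 1 point per gene and boxes at the quartiles and median. The medians of the falling genes are -1.23, -0.90 and -1.14 at ZT4, ZT10 and ZT16, those of the rising genes 1.11, 0.92 and 0.98, and the ZT22 values chose the genes and lie farther out.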

How the data were processed

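Total RNA of isolated hepatocytes was sequenced, by the study's methods after ribosomal RNA removal. Per the labels and the study's methods, the authors aligned reads to mm9 with STAR and quantified genes with HOMER (versions not given in the sources used here), and deposited RPKTM (an RPKM-type unit, scaled to a fixed number of reads) that they had quantile normalised over the 36 hepatocyte libraries. The table gives no counts, so sequencing depth could not be read from it, and quantile normalisation forces equal distributions. Of 42322 transcripts, 1 per symbol (25095, highest mean) was kept, and 13326 genes with over 5 RPKTM in at least 3 columns were tested. The main fit was limma 3.58.1 (R 4.3.3) with trend on log2(RPKTM + 1), 12 genotype and time groups, Benjamini-Hochberg adjusted p under 0.05 over all genes, and 95% intervals. A second contrast set ZT22 against the mean of the other 3 times. Genes were named by a rule: label checks, the 10 largest changes and the 5 most abundant genes in each direction whose groups did not overlap, the smallest adjusted p in each list, and any member of the sterol and fatty acid synthesis lists. Members and lists were chosen with earlier results of these data known. Alternatives were other pseudocounts (0.1 and 5), filters, normalisation, sample sets, weights, a macrophage score as a covariate, a replicate block and leaving out each library. The fit was tested on simulated data. Srebf1, Srebf2, Nr1d1, Ddx5, Galnt7, Gm45928 and Armcx3 overlap other listed genes, and whether the counting used strand was not given in the sources used here. Promoters were read from NCBIM37 with the deposited coordinates. The other 2 deposited tables were not used here, and the macrophage table was used for levels only. Results for some genes are not reported here.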

Additional observations from a re-analysis of the deposited data

Results flagged for a closer look

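For 2 of the genes named for the time difference, the 3 RevScapTKO libraries lay on one side of RevDKO at ZT22 and on the other side at an earlier time. They were named for their small p-values in that limma contrast, so a change between times follows in part from the choice. Galnt7, a glycosyltransferase gene, was 17.0, 17.5 and 19.0 RPKTM in RevDKO and 16.7, 12.7 and 7.98 in RevScapTKO at ZT22. At ZT4 it was 12.6 to 15.6 against 26.0 to 28.7, and at ZT10 it was at most 12.8 in RevDKO against 20.1 to 31.9. Its ZT22 difference less the mean of the other 3 times was -1.31 (SE 0.33, unadjusted p = 0.000455). Tcea2, a transcription elongation factor gene, was 0.433, 0 and 2.39 against 4.59, 10.9 and 2.44 at ZT22, and 4.11, 2.20 and 5.89 against 1.36, 0.327 and 1.27 at ZT4. Its time difference was 2.57 (SE 0.64, unadjusted p = 0.000367). Neither passed after adjustment over all genes (limma, adjusted p = 0.995), and the pairs of single times were not tested.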

How the results depend on the processing

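The count of 313 genes changed by more than 1.5 times under several alternatives. All transcripts gave 549 (146 higher, 403 lower), only the 2 genotypes 201 (43 higher), only the 6 libraries 121 (30 higher, 91 lower) and the macrophage score as a covariate 121 (16 higher, 105 lower). Leaving out 1 library gave 116 to 384 genes, 10 to 97 of them higher and 106 to 287 lower, with the fewest without RevScapTKO replicate 2 (116), RevDKO replicate 2 (148) and RevDKO replicate 1 (184). The number of rises alone moved with no filter (47) and with array weights (137). Pseudocounts, the stricter filter, the fit without trend and centring on medians left the count within 1.5 times. Same-numbered libraries share only a number (their deviations from the group means correlated at 0.074, 0.012 and 0.054), and the fit with the replicate block gave 352 genes (103 higher, 249 lower). The time contrast gave 0 genes in every alternative run, with 420 to 1195 at an unadjusted p under 0.05. Of 83 named calls, 41 (37 of 62 falls and 4 of 21 rises) were kept in every alternative run per gene that tested the gene. The stricter filter leaves out genes with low values, so for such genes it does not check the call. Ebp, not called (-0.14), reversed to 0.22 with the macrophage score, 0.30 without RevDKO replicate 1, 0.43 without RevDKO replicate 3 and 0.34 without RevScapTKO replicate 2, against -1.15 without RevDKO replicate 2; the cause was not tested. Without counts, counting error and depth could not be assessed.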
